A study of Mus musculus with 4 samples.

Results

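Tubule injury markers are genes whose transcripts rise in kidney epithelium when tubule cells are damaged. They were examined here in the whole kidneys of Usp2-deficient mice and of wild-type (WT) littermates. Usp2 is a protease that takes ubiquitin off other proteins. The markers were 10 genes chosen for their known role in injury: Havcr1, Lcn2, Spp1, Clu, Krt8, Krt18, Krt20, Sox9, Vcam1 and Timp1. A gene entered when a row of the array was annotated with its symbol alone, and the row of highest mean was used where there were several. This gave 9 of the 10 markers with 1 row each, out of 19934 genes. Spp1, which encodes osteopontin, was not analysed here.

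Both groups were male C57BL6/N mice 12 weeks old, WT or Usp2-KO, kept for 3 weeks in a cycle of 12 h light and 12 h dark and killed at Zeitgeber time 12, when the light phase ends. The kidneys came from 6 pairs of littermates. RNA was pooled from 3 mice at a time, which made 2 pools of each genotype, and pools of the same number hold littermates. Below, a littermate pair means the WT and Usp2-KO pools of the same number, and pairs of single mice are not resolved. The labels name no injury, drug or diet in either group, and do not say how the Usp2 allele was made or in which cells it is lost. Each pool was measured on 1 Affymetrix whole-transcript array, and values are log2 expression after RMA, with array medians between 7.44 and 7.46. Variation among single mice is hidden inside a pool, and the 4 arrays limit the precision of every value. Detection calls are not in the files, and no gene's level was read as more or less transcript than another's. Sums over gene lists, given below, weigh genes of higher signal more. As a check of the labels, Usp2 had log2 values of 11.63 and 11.71 in the WT pools and 7.65 and 7.60 in the Usp2-KO pools. The 8 proximal tubule markers, genes of the main epithelium of kidney cortex, were higher in 5 and lower in 3, with differences of -0.04 to 0.05 on the log2 scale. Those of smallest p were the transporter genes Slc22a6 (0.05), Slc7a13 (0.05) and Slc5a12 (-0.04).

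In a damaged tubule, epithelial cells lose their brush border and transport genes, and the surviving cells take on a less differentiated state from which the epithelium is rebuilt. Surface and secreted proteins made in that state, such as KIM-1 (the product of Havcr1) and NGAL (the product of Lcn2), reach the urine and are measured there as signs of acute kidney injury. Keratins, the transcription factor Sox9 and the adhesion molecule Vcam1 mark cells under repair, and some of these genes are also active in healthy kidney or in cells other than tubule cells.

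None of the 9 markers passed an adjusted p of 0.05 in limma's comparison of Usp2-KO with WT kidney, in which 1 of 19934 genes passed (0.00502%), Usp2 itself. A fit with the littermate pair (the pool number) as a block had 153 genes past the threshold, and again 0 of the 9 markers. At an unadjusted p under 0.05 without the block there were 2 markers, Clu (higher) and Lcn2 (lower), where this holds for 9.11% of all genes. With the block it was Lcn2 alone, and the share of all genes was not counted in that fit. The 3 markers Clu, Krt8 and Vcam1 had the higher mean in Usp2-KO kidney, as did 47.4% of all genes. The other 6, Havcr1, Lcn2, Krt18, Krt20, Sox9 and Timp1, had the lower mean, as did 52.4%. The median difference over the 9 markers was -0.07 on the log2 scale, beside -0.006 over all genes, and their median absolute difference was 0.08, beside 0.07. The groups did not overlap for 3 of the 9 markers, a state met by 38.9% of all genes. Clu stood wholly above in Usp2-KO kidney (19.8% of all genes did), and Lcn2 and Krt20 stood wholly below (19.1%). The differences of all 9 lay within the middle 95% of all genes, between -0.22 and 0.24. In whole tissue, fewer cells of a type and less RNA per cell cannot be told apart.

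**Figure D1:**
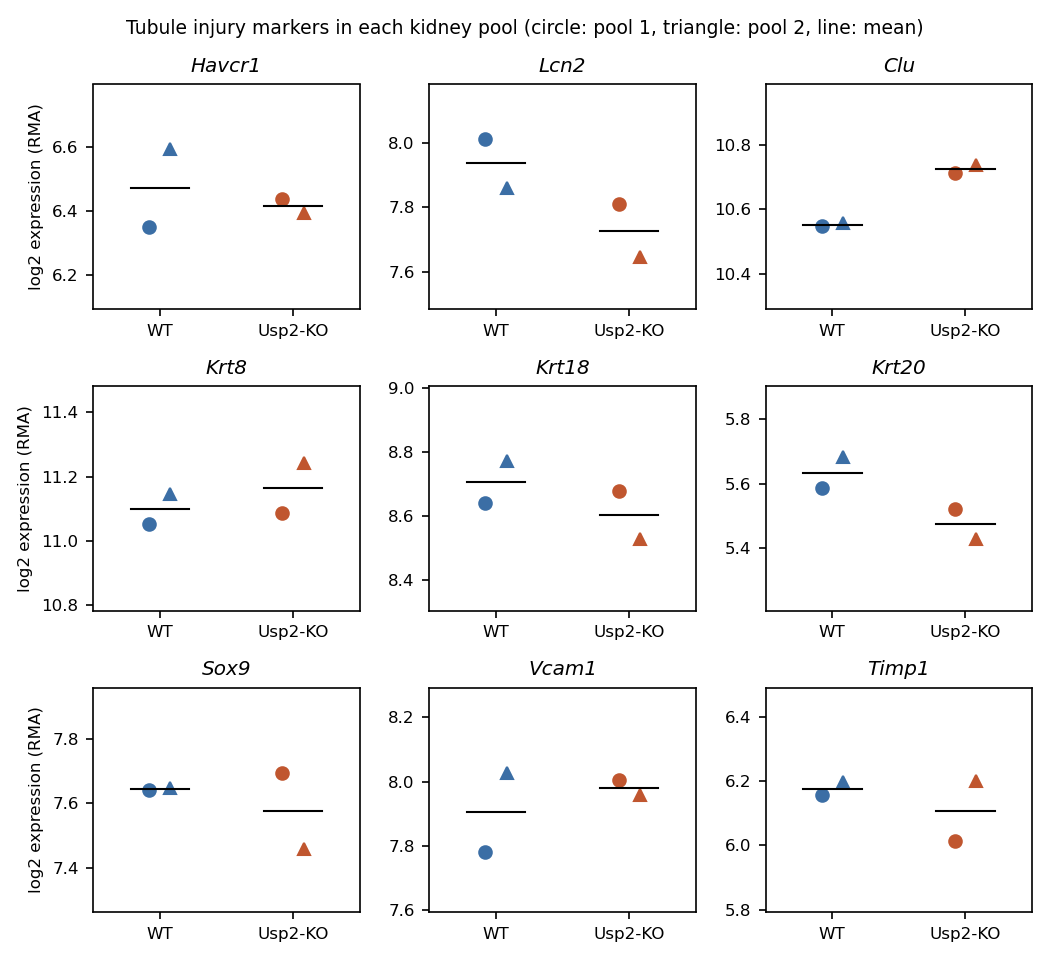
Log2 expression (vertical axis, RMA values) of each of the 9 markers in the WT and Usp2-KO pools (horizontal axis), with circles for pool 1, triangles for pool 2 and a line at the mean of the 2 pools. Every panel spans the same height on the log2 scale. The pools separate by genotype for Lcn2, Clu and Krt20 and overlap for the other 6 markers.

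Lcn2 and Krt20 were the markers with both Usp2-KO pools below both WT pools, and the stretches upstream of their starts are shown for that reason. They come from RefSeq's GRCm38.p6 assembly, 250 bases each, read toward the gene and ending at the base before its annotated start. Capitals mark a TATA box, spelled TATAAA.
Lcn2 (chr2:32387740-32387989, minus strand): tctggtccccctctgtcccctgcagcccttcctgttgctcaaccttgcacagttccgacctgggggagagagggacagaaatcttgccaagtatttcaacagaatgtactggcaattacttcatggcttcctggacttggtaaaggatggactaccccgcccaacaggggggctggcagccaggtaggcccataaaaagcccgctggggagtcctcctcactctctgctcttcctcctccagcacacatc
Krt20 (chr11:99438154-99438403, minus strand): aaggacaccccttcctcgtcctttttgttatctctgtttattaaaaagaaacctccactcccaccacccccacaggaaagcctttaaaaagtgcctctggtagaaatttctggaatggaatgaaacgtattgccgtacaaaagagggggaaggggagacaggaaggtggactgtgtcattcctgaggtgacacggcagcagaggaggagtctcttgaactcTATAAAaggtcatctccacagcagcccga
The TATA box of Krt20 begins 29 bases before the start, and the Lcn2 window holds no match to it.

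The table of promoters held windows of 300 bases (250 before and 50 after the start) for 7 of the 10 marker genes. Clu, Sox9 and Vcam1 are not among them. Both strands were searched for TATAAA, for the AP-1 motif TGANTCA and for the NF-kB motif, the binding sequence of a factor that inflammatory signals activate. Of all 32851 windows, 13.6% held TATAAA, 7.81% TGANTCA and 8.46% the NF-kB motif. The NF-kB motif was found in the Krt18 window, at -47, and TGANTCA in 1 of the 3 Havcr1 windows. The Krt8 window held TATAAA in overlapping matches on both strands beside the start, and the Timp1 window held none of the motifs. These are matches of letters, with no measurement of binding.

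Among the secreted markers, Lcn2 encodes lipocalin-2, a small protein that binds bacterial iron carriers and is released by stressed distal tubule cells and by neutrophils. Its log2 values were 8.01 and 7.86 in WT pools 1 and 2 and 7.81 and 7.65 in Usp2-KO pools 1 and 2. Both Usp2-KO pools were thus lower, by a margin between the nearest pools that is smaller than the spread within either genotype. The difference was -0.21 (SE 0.09, 95% confidence interval -0.41 to -0.01), which is 1.16-fold lower. Limma gave an unadjusted p of 0.0415 and an adjusted p of 0.531. Within the littermate pairs it was -0.20 and -0.22. The value was -0.13 without WT pool 1 and also without Usp2-KO pool 2. The exact two-sided permutation test of 2 against 2 pools gave 0.333, the smallest p it can give.

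Clu encodes clusterin, a secreted chaperone that binds misfolded proteins and rises in many forms of tubule damage. It had log2 values of 10.55 and 10.56 in the WT pools and 10.71 and 10.74 in the Usp2-KO pools. Pools of one genotype lay close together (SD 0.0057 in WT and 0.017 in Usp2-KO, n = 2 pools each), and the Usp2-KO pools were higher. The difference was 0.17 (SE 0.07, 95% confidence interval 0.01 to 0.33), or 1.13-fold, with an unadjusted p of 0.0358 and an adjusted p of 0.514 by limma. With the littermate pair as a block, limma's unadjusted p was 0.0684. Both littermate comparisons ran the same way, at 0.16 and 0.18, and leaving out any 1 pool gave values between 0.16 and 0.18. The limma estimate of error draws on the spread of all genes and is therefore wider than the distance between pools of one genotype. Of the 9 markers, Clu had the narrowest range when 1 pool was left out.

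Timp1 encodes a secreted inhibitor of metalloproteases, the enzymes that cut extracellular matrix. Its log2 values were 6.16 and 6.20 in WT and 6.01 and 6.20 in Usp2-KO kidney. The genotypes overlapped, and Usp2-KO pool 1 was the low one. The difference was -0.07 (SE 0.08), and without Usp2-KO pool 1 it was 0.02. Of the 11 genes of TIMP inhibitors and metalloproteases, Timp1 included, 2 were higher and 9 lower, with a median of -0.07 beside -0.006 for all genes. None passed the adjusted threshold or an unadjusted p under 0.05. Those of smallest p were Adam17, a sheddase that releases surface proteins (0.11), Timp4 (-0.14) and Mmp3, a matrix protease (-0.15).

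Havcr1 encodes KIM-1, a surface receptor of injured proximal tubule cells that takes up dying cells. Its log2 values were 6.35 and 6.59 in the WT pools and 6.44 and 6.39 in the Usp2-KO pools. Both Usp2-KO pools lay between the WT pools, whose own spread was wide (SD 0.17, n = 2 pools). The difference was -0.06 (SE 0.09, 95% confidence interval -0.26 to 0.15), and limma's adjusted p was 0.906. The interval runs from 0.834 to 1.11 times the WT level. The littermates differed by 0.09 in pool 1 and -0.20 in pool 2, and without WT pool 2 the difference was 0.07.

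Vcam1 encodes an adhesion molecule that binds leukocyte integrins. It is made by activated endothelium and by proximal tubule cells that fail to complete repair. The log2 values were 7.78 and 8.03 in WT and 8.004 and 7.96 in Usp2-KO kidney, with the Usp2-KO pools again between the WT pools. Its difference was 0.08 (SE 0.09, 95% confidence interval -0.13 to 0.28), and it was -0.04 without WT pool 1, the low array. Of 9 endothelial markers 1 was higher and 8 lower, with a median of -0.02. The groups overlapped for each of the 9, where they did not overlap for 38.9% of all genes. Among the related gene lists, the share without overlap ran from 0% for this list to 62.5% for proximal tubule. The endothelial genes of smallest p were Kdr, a receptor for vascular growth factor (-0.09), Eng (-0.06) and Cdh5, the cadherin of endothelial junctions (-0.06).

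Sox9 encodes a transcription factor that is switched on in tubule cells as they begin to proliferate and repair. Its log2 values were 7.64 and 7.65 in the WT pools and 7.70 and 7.46 in the Usp2-KO pools. The Usp2-KO pools stood on either side of the WT pools, so that the littermates differed by 0.06 and -0.19. The difference was -0.07 (SE 0.09, 95% confidence interval -0.27 to 0.14) and became 0.05 without Usp2-KO pool 2.

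Krt8 and Krt18 encode the type II and type I keratins that pair to form the intermediate filaments of simple epithelia, and both rise in stressed tubules. Krt8 had log2 values of 11.05 and 11.15 in WT and 11.09 and 11.24 in Usp2-KO kidney. Krt18 had 8.64 and 8.77 in WT and 8.68 and 8.53 in Usp2-KO kidney. The genotypes overlapped for both partners. Krt8 differed by 0.07 (SE 0.08, 95% confidence interval -0.12 to 0.25) and Krt18 by -0.10 (SE 0.08, 95% confidence interval -0.29 to 0.09). Usp2-KO pool 2 held the highest Krt8 and the lowest Krt18 value of the 4 arrays. Without that pool Krt8 differed by -0.01 and Krt18 by -0.03.

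Krt20 encodes a keratin of umbrella cells, the surface layer of the urothelium, and is also induced in injured tubules. It had log2 values of 5.59 and 5.68 in the WT pools and 5.52 and 5.43 in the Usp2-KO pools, with no overlap. The difference was -0.16 (SE 0.08, 95% confidence interval -0.33 to 0.01), which is 1.12-fold lower. Limma gave an unadjusted p of 0.0678 and an adjusted p of 0.578. The littermates differed by -0.06 and -0.26. Over the 12 keratins examined, 2 were higher and 10 lower, with a median of -0.03. Krt15, a keratin of basal cells, had the smallest p (-0.26, unadjusted p = 0.0159, adjusted p = 0.429 by limma). Krt7 and Krt19, keratins of ducts and urothelium, differed by 0.03 and -0.09.

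**Figure D2:**
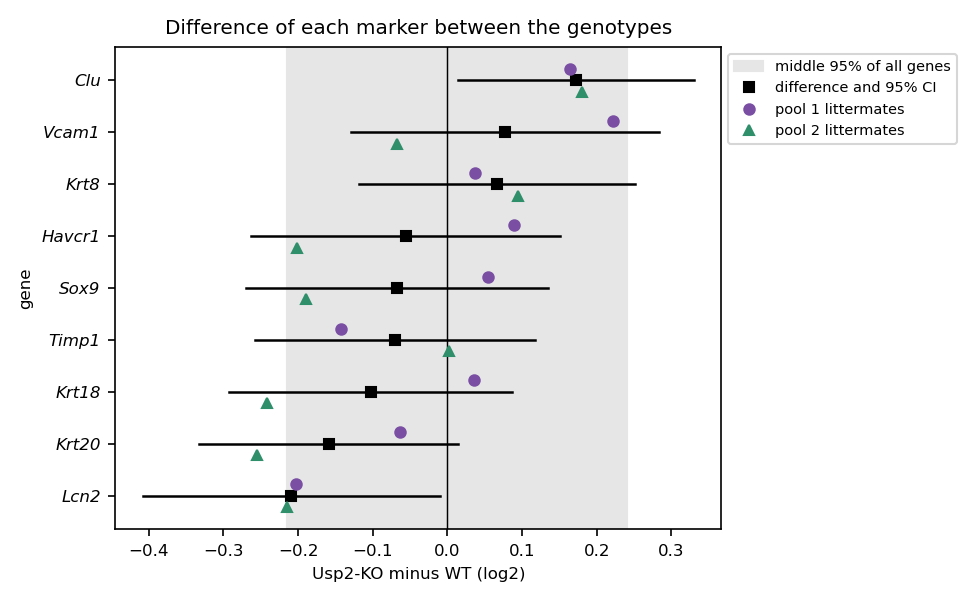
Difference of each marker between Usp2-KO and WT kidney (horizontal axis, log2), with squares for the fitted value, lines for its 95% confidence interval, circles for the pool 1 littermates, triangles for the pool 2 littermates and a grey band for the middle 95% of all 19934 genes. The intervals are from the fit without the littermate block, and those of Clu and Lcn2 leave out 0 without adjustment for the number of genes, and the littermate pairs have opposite signs for 5 of the 9 markers.

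The littermate pairs ran in opposite directions for 5 of the 9 markers, as they did for 47.8% of all genes. Those were Havcr1, Krt18, Sox9, Vcam1 and Timp1. Usp2-KO pool 2 was the lowest array for 4 of the 9 markers (Lcn2, Krt18, Krt20 and Sox9) and the highest for 3 (Clu, Krt8 and Timp1). WT pool 2 was the highest array for 4 and the lowest for 0. The confidence intervals are for single genes, from the fit without the littermate block and without adjustment for the number of genes. Low signal was also not separated from background, so the intervals set no firm limit on a change that was missed. The largest upper bound was that of Clu, at 1.26 times the WT level, followed by 1.22 for Vcam1, and the lowest bound was that of Lcn2, at 0.754 times.

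Markers of other cells that make these transcripts were set beside them, as the log2 of their summed linear values per array. The 10 urothelial markers, among them the uroplakins of umbrella cells, were higher in 2 and lower in 8, with a median of -0.10. Their summed level was 11.53 and 11.66 in the WT pools and 11.57 and 11.38 in the Usp2-KO pools. It was highest in WT pool 2 and lowest in Usp2-KO pool 2, as were Krt18 and Krt20. The largest terms of the sum were Gata3, Psca and Upk1a (WT means of 9.62, 9.40 and 8.69), and Gata3 differed by 0.05. Of the 10 markers, 8 had their lowest value in Usp2-KO pool 2. Psca, a surface antigen of urothelium, had the smallest p and differed by -0.10 in the pool 1 littermates and -0.60 in the pool 2 littermates. Trp63, a transcription factor of basal cells, came next and was higher in both Usp2-KO pools than in both WT pools (0.07 and 0.20 in the littermates). Upk1a, a uroplakin, differed by 0.09 and -0.62. Their part in the keratin values was not tested.

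The neutrophil markers were higher in 2 of 10 and lower in 8, with a median of -0.12. Their summed level was 9.40 and 9.28 in the WT pools and 9.23 and 9.29 in the Usp2-KO pools. The largest terms of that sum were Elane, Camp and Mpo, with WT means of 6.88, 6.71 and 6.60. The sum and Lcn2 were both highest in WT pool 1. The sum was lowest in Usp2-KO pool 1, and Lcn2 in Usp2-KO pool 2. The 3 genes of smallest p, named next, each had their highest value in WT pool 2. Cxcr2, a chemokine receptor of neutrophils, differed by -0.33 (unadjusted p = 0.00326, adjusted p = 0.318 by limma). S100a8, an abundant neutrophil protein, differed by -0.16 and Csf3r, the receptor of a neutrophil growth factor, by -0.14. WT means of the 3 were 4.21, 5.31 and 6.26, and low signal was not separated from background. The part of neutrophils in the Lcn2 value was not tested. Macrophage markers had a median of -0.01, with 2 higher, 6 lower and 1 of equal means. Those of smallest p were Cx3cr1 (-0.07), Cd14 (-0.06) and Mrc1 (0.05), all receptors of these cells. Markers of fibroblasts and pericytes had a median of -0.01, with 4 higher and 4 lower. The receptor gene Pdgfrb differed by -0.13, the smooth muscle actin gene Acta2 by 0.10 and the matrix gene Lum by 0.08. Of 7 adipocyte markers 6 were lower, with a median of -0.34. Retn, the fat hormone resistin, differed by -0.42, Adipoq, the hormone adiponectin, by -0.47 and Cidec, a lipid droplet protein, by -0.42. Usp2-KO pool 1, which had the lowest Timp1 value, was the lowest array for 4 of the 7 (Retn, Adipoq, Cidec and Plin1). The summed level of the adipocyte list did not share that order, at 12.18 and 11.99 in the WT pools and 12.01 and 11.96 in the Usp2-KO pools. That sum rests mostly on Lpl, at 11.73 and 11.47 in the WT pools and 11.65 and 11.42 in the Usp2-KO pools. The part of fat in the Timp1 value was not tested.

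Healthy kidney also holds Clu transcript in the thin limbs and papilla. Of 6 measured genes listed for that region 2 were higher and 4 lower, with a median of -0.05. They are not all particular to it, as Aqp1 is also among the healthy tubule genes given below. Slc14a2, the urea transporter gene of the inner medulla, had log2 values of 9.70 and 9.68 in the WT pools and 9.26 and 9.19 in the Usp2-KO pools. It differed by -0.47 (SE 0.07, unadjusted p = 0.000124, adjusted p = 0.242 by limma), while Clu differed by 0.17. Slc6a6, the taurine transporter gene, differed by 0.09 and Fxyd4, a regulator of the sodium pump, by -0.08. The summed level of the list was 13.76 and 13.75 in WT and 13.76 and 13.77 in Usp2-KO kidney. That sum rests mostly on Aqp1, Slc6a6 and Slc5a3 (WT means of 12.17, 12.13 and 11.75), and Slc14a2 weighs little in it. The part of this region in the Clu value was not tested.

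**Figure D3:**
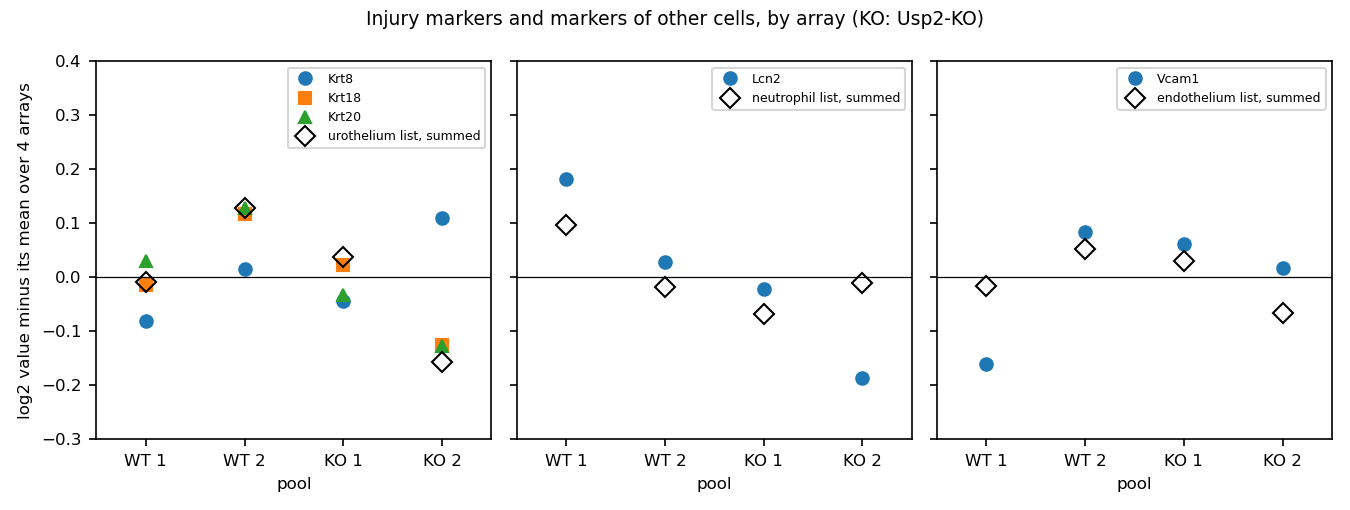
Log2 value minus its mean over the 4 arrays (vertical axis) in each WT and Usp2-KO pool (horizontal axis) for the 3 keratin markers with the summed urothelial list, for Lcn2 with the summed neutrophil list and for Vcam1 with the summed endothelial list. Filled symbols are injury markers and open diamonds are the summed lists. Krt18, Krt20 and the urothelial list are highest in WT pool 2 and lowest in Usp2-KO pool 2, while Krt8 is highest in Usp2-KO pool 2.

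Other genes known to be induced in injured or repairing tubules gave counts in both directions. Of 29 measured genes of 33 listed, 15 had the higher mean in Usp2-KO kidney and 14 the lower, with a median of 0.006, and 0 passed the adjusted threshold in limma. At an unadjusted p under 0.05 there was 1 higher gene (5.22% of all genes) and 1 lower gene (3.88% of all genes). Itgb6, an integrin subunit that activates TGF-beta, had log2 values of 10.30 and 10.15 in WT and differed by 0.22 (SE 0.08, adjusted p = 0.463 by limma). Fn1, the matrix protein fibronectin, differed by -0.18 (SE 0.08, adjusted p = 0.538 by limma). The chemokine gene Cxcl10 differed by 0.17 (SE 0.09) and did not reach an unadjusted p of 0.05.

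Genes of the healthy tubule, which fall when tubules are injured, were higher in 10 and lower in 7 of 17 measured, with a median of 0.02. Their differences ran from -0.06 to 0.44. Calb1, the calcium-binding protein of the distal tubule, had the smallest p (0.44, SE 0.09, adjusted p = 0.286 by limma). It was followed by Kl, the gene of klotho, a co-receptor for a phosphate hormone (0.14), and Slc12a1, the sodium cotransporter of the thick ascending limb (0.13). None of the 17 passed the adjusted threshold in limma, and Calb1 alone had an unadjusted p under 0.05.

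Genes listed as regulators of inflammation upstream of Lcn2 and Vcam1 were lower in 13 and higher in 3 of 16 measured. The median was -0.05, beside -0.006 for all genes, of which 52.4% were lower. Activators and inhibitors were not separated in the list, so the counts give no direction of signalling. Tnf, the cytokine tumour necrosis factor, had the smallest p, with log2 means of 6.81 in WT and 6.58 in Usp2-KO kidney and a difference of -0.23 (unadjusted p = 0.0173, adjusted p = 0.439 by limma). None of the 16 passed the adjusted threshold, and no other had an unadjusted p under 0.05. The NF-kB subunit genes Relb and Nfkb2 each differed by -0.12. Genes listed as receptors and partners of the secreted and surface markers were higher in 5 and lower in 10 of 15, with a median of -0.02. At an unadjusted p under 0.05 there were 0 of 15. Itga4, a subunit of the integrin that binds Vcam1, differed by 0.12, and its relative Itga9 by -0.12. The receptor-like gene Cd300lf, listed without evidence here that it binds a marker, differed by -0.18. Its values were -0.38 in the pool 1 littermates and 0.03 in the pool 2 littermates.

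**Figure D4:**
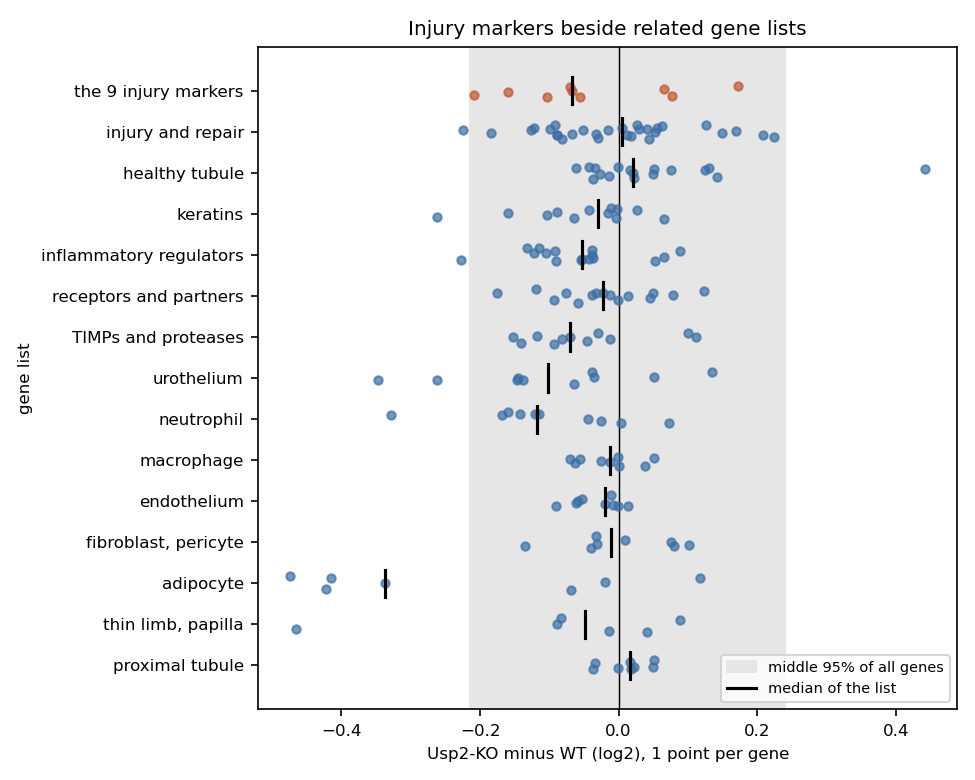
Difference between Usp2-KO and WT kidney (horizontal axis, log2) of the 9 injury markers (top row) and of each measured gene in 14 related lists (rows), with 1 point per gene, a black line at each list's median and a grey band for the middle 95% of all genes. Points are spread vertically for visibility only. The 9 markers lie inside the band, and the median furthest from 0 is that of the adipocyte list, at -0.34.

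Lcn2 had the largest absolute difference of the 9 markers, so its pattern over the 4 arrays was compared with that of 15884 other genes of mean log2 value of at least 6. The likeness was the Euclidean distance between values from which each gene's own mean had been taken. The nearest 5 were Kcns1, Cyp11b2, Olfr225, Fer1l4 and Tnfrsf13c, at distances of 0.0264 to 0.0451 on the log2 scale. Over 4 arrays this likeness is a description only.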

How the data were processed

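Log2 values were deposited; per the submitters' processing notes the authors used RMA. This method corrects background, equalises the arrays' distributions and summarises probe sets. Per the labels' protocols, 300 ng of pooled RNA was labelled per array. Software and genome build are not given in the sources used here. Of 28270 rows, 21780 had 1 gene symbol in the platform annotation, 1617 had several and 4873 were unnamed. The row of highest mean represented each of 19934 genes.

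The genotypes were compared with limma 3.58.1 under R 4.3.3 (lmFit, eBayes, genotype as the only term, Usp2-KO minus WT), with Benjamini-Hochberg adjustment over all genes and a threshold of 0.05. Confidence intervals are for single genes. The fit was tested on simulated data. The design text keeps littermates in pools of the same number; deviations of same-numbered pools correlated at -0.121 across genes. From each list, the 3 genes of smallest p were named; other genes, and the array plots of other cells, were chosen after their values were seen. Members and lists were chosen with earlier results of these data known. Other settings tried were a robust prior, an intensity trend, a littermate block, 2 filters on level, 2 treatments of several rows, 2 normalizations and each pool left out. Figures used matplotlib 3.10.9.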

Additional observations from a re-analysis of the deposited data

How the results depend on the processing

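In every setting run with all 4 arrays, 0 of the 9 markers passed the adjusted threshold in limma. In those without a block, 2 (Clu and Lcn2) had an unadjusted p under 0.05. Neither Clu nor Lcn2 stayed under it in all the fits run. With the littermate pools as a replicate block, 153 genes passed, against 1 without it, and no marker's adjusted call changed. The block left Lcn2 (unadjusted p = 0.0274) but not Clu (0.0684) under an unadjusted 0.05. The smallest adjusted p of a marker with the block was 0.418, and the cause of the higher count was not tested. An intensity trend gave 18 genes, and the filters on level, which left 5 and 8 of the 9 markers, gave 7 each. Leaving out 1 pool gave 1 to 2 genes. The crossed pairing, chosen after seeing the data, gave 1 gene, with 2 markers under an unadjusted 0.05 in limma. These were Clu (0.0341) and Krt20 (0.0447), while Lcn2 had 0.0542. The share of all genes under an unadjusted 0.05 was not counted in either fit with a block. The direction of a marker turned when 1 pool was left out for Havcr1 (-0.18 to 0.0665), Vcam1 (-0.0445 to 0.20), Timp1 (-0.16 to 0.0225), Krt8 (-0.011 to 0.14) and Sox9 (-0.19 to 0.0515), and in no other setting. Across the same 4 fits Lcn2 ran from -0.29 to -0.13, Krt18 from -0.18 to -0.03, Krt20 from -0.21 to -0.11 and Clu from 0.16 to 0.18. A lone pool was assumed to vary like the other group. Low signal cannot be separated from background here, as the files hold no detection calls.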
